A study of Solanum lycopersicum with 16 samples.

Results

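CRF5 and STF4 were the 2 transcripts of a panel of 22 that carry neither an IDD nor a STOP1 name, and they were selected by name. Roots and shoots of tomato (Solanum lycopersicum, cultivar M82) seedlings were sampled 2 h and 24 h after the start of a stress, and qRT-PCR with SYBR Green was run on their RNA with a single reference gene, ubiquitin. The stressed groups were salt (potting medium saturated with 200 mM NaCl), low pH (water at pH 4.2) and flood (roots submerged), and the controls received water alone. Each of these 4 conditions covered both tissues and both times, which gives 16 groups, and CRF5 and STF4 had values in 14 of them, all except pH 4.2 shoots. All groups were whole roots or whole shoots of 1 cultivar, so that a change in the cells present and a change of transcript per cell cannot be told apart, and the panel holds no marker of either tissue against which the labels could be checked.

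Cytokinin response factors (CRFs) are plant transcription factors of the AP2/ERF class. In Arabidopsis several of them are induced by cytokinin and act beside the response regulators at the end of the cytokinin phosphorelay, and members of the group have been studied in development and under abiotic stress. The RefSeq gene table of tomato has 1 protein-coding gene with the symbol CRF5 and none with the symbol STF4. Whether the CRF5 assay was designed on that gene is not given in the sources used here, and neither the full name nor the role of STF4 is given there.

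A Ct is the PCR cycle at which a well's fluorescence crosses the threshold, so that a lower Ct means more template, and at full efficiency, which was assumed, 1 cycle is 1 unit on the log2 scale. CRF5 had 52 wells with a Ct of the 56 possible, and STF4 had 53, with 3 or 4 wells for each gene in every group. The lowest and highest Ct were 16.13 and 24.05 for CRF5 and 16.49 and 20.56 for STF4, far below the limit of 30 set for late wells. The median SD of Ct within a group was 0.25 cycles for CRF5 and 0.23 cycles for STF4. The largest SD of CRF5 was 1.24 cycles, in control roots at 2 h, and the largest of STF4 was 0.98 cycles, in flood shoots at 24 h. Wells could not be tied to plants, so that every p below is too small if several wells came from 1 plant.

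The names CRF5 and STF4 rest on a matching of positions. The deposited sheet names these wells after 2 IDD genes in every second-plate column, and the positions were read as CRF5 and STF4, with the upper 4 well rows (A to D) taken for 2 h and the lower 4 (E to H) for 24 h, because the paper's supplementary tables come out of the Ct values in this way. The same positions were used on every plate. Each combination of condition and tissue had a plate of its own, which held both times. A stress and its control therefore always lay on different plates and the 2 effects cannot be told apart, whereas 2 h and 24 h of a group shared a plate.

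Ubiquitin on these plates averaged between 14.54 and 17.49 cycles over the 16 groups, with a median SD of 0.21 cycles. In roots its Ct differed between stress and control by -1.54 cycles at 2 h and -0.79 cycles at 24 h under salt, by 1.41 and 0.05 cycles under pH 4.2, and by -0.89 and -0.86 cycles under flood. In shoots no such difference was over 0.40 cycles in size on these plates. On the plates of the first layout, ubiquitin of the same groups differed by 0.19 and 1.96 cycles in salt shoots at 2 h and 24 h. In flood shoots it differed there by 0.07 and 0.74 cycles, and in roots by values between -3.97 and -1.35 cycles. None of the differences on the second plates passed the exact two-sided permutation test after adjustment over the 10 comparisons, where the lowest adjusted p was 0.0714. The unadjusted exact p was 0.029 in 4 of them (salt and flood roots at both times), the smallest that these numbers of wells allow. Even at that floor these 4 had an adjusted p of 0.0714, so that the lack of calls does not show a steady ubiquitin. A log2 fold change below is the stress minus control Ct of ubiquitin less the stress minus control Ct of the gene on the same plate, so that a positive value means more transcript under stress.

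**Figure D1:**
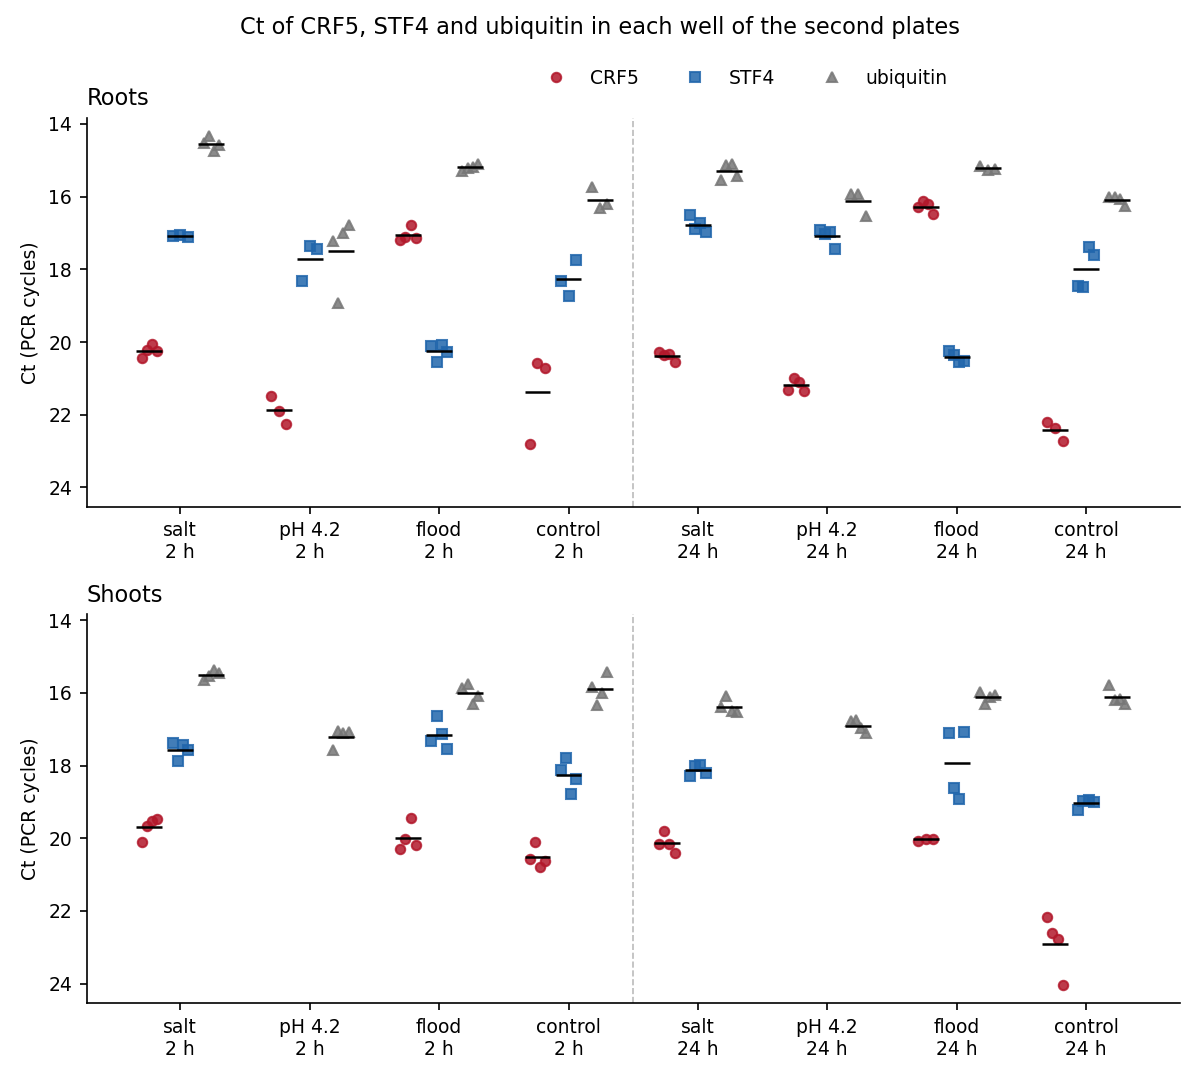
Ct in PCR cycles (vertical axis, inverted so that more transcript is higher) of every second-plate well of CRF5, STF4 and ubiquitin, in roots (top) and shoots (bottom), by condition and time; short lines are group means. CRF5 lies below STF4 in every group except flood roots, where CRF5 wells lie between 16.13 and 17.18 cycles and STF4 wells between 20.09 and 20.56 cycles; pH 4.2 shoots have ubiquitin wells only.

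Set against controls of equal tissue and time, CRF5 rose under stress in 6 of 10 comparisons and fell in none, and STF4 rose in 5 and fell in 2. Over all 22 targets and 10 comparisons, 57.3% of 220 tests passed the adjusted p of 0.05. With the positions read alike on all plates, the steepest changes of both genes were in flood roots, where they had opposite directions. With the 2 names exchanged on the flood root plate, CRF5 rose in 5 comparisons and STF4 in 6, neither fell in any, and flood roots no longer held the steepest change of either gene. The call rates of the members (6 and 7 of 10) thus lay close to that of the panel, and by an exact permutation test over wells, in place of limma, each gene passed in 2 comparisons. The direction also depended on the reference: with the mean of the 9 other second-plate targets in place of ubiquitin, CRF5 rose in 3 comparisons and fell in 2 (salt roots at 2 h, -2.04, adjusted p = 0.00638, and pH 4.2 roots at 2 h, -2.05, adjusted p = 0.0273), and STF4 rose in none and fell in 4. That mean took in steep rises of some targets. In salt roots at 2 h the 9 had a median log2 fold change of 0.12 and a highest of 6.82. In pH 4.2 roots at 2 h these were 2.35 and 8.27. Of the 9, 2 rose past the threshold in salt roots at 2 h and 7 did not pass, and in pH 4.2 roots at 2 h 5 rose and 4 did not pass. A fall under this reference is therefore a fall relative to a mean that steep rises of some targets lifted, and not relative to each target.

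In flood roots CRF5 came up earlier than in any other group. At 2 h its wells had Ct 17.18, 17.11, 16.78 and 17.14 in flood roots, against 22.81, 20.59 and 20.73 in control roots. At 24 h they had Ct 16.28, 16.13, 16.21 and 16.48 in flood roots, against 22.21, 22.37 and 22.72 in control roots. The flood and control wells did not overlap at either time, and 1 control well at 2 h was more than 2 cycles later than the other two. Relative to ubiquitin, the level of CRF5 in flood roots exceeded that in control roots 10.9-fold at 2 h (log2 fold change 3.44, SE 0.552, limma adjusted p = 0.000467) and 39.4-fold at 24 h (5.30, SE 0.206, adjusted p = 1.14e-08). Of all targets, 40.9% passed at 2 h and 40.9% at 24 h. CRF5 ranked 2nd from the highest of 22 log2 fold changes at 2 h and 1st at 24 h.

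STF4 was later in flood roots than in any other group. At 2 h its wells had Ct 20.10, 20.56, 20.09 and 20.27 in flood roots, against 18.32, 18.73 and 17.74 in control roots. At 24 h they had Ct 20.26, 20.35, 20.54 and 20.53 in flood roots, against 18.45, 18.49, 17.38 and 17.59 in control roots. The groups did not overlap at either time. Relative to ubiquitin, the log2 fold change of STF4 was -2.88 at 2 h (SE 0.357, adjusted p = 4.66e-05), a level 7.34-fold lower in flood roots, and -3.30 at 24 h (SE 0.293, adjusted p = 6.74e-06), a level 9.87-fold lower. STF4 ranked 22nd of 22 targets at 2 h and 21st at 24 h. By the exact permutation test, adjusted over the 22 targets, neither gene passed in flood roots (adjusted p = 0.0786 for each at 2 h and 0.0571 for each at 24 h). No exact p of 4 wells against 3 or 4 can lie below 0.029.

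The 2 genes lay in neighbouring positions of the plate, and their Ct values in flood roots were compared with those of all other groups. Outside flood roots, 44 wells of CRF5 spanned Ct 19.45 to 24.05 and 45 wells of STF4 spanned 16.49 to 19.22. None of the 8 flood root wells of either gene fell inside its own span. With the 2 names exchanged on the flood root plate alone, all 8 wells named CRF5 and 4 of the 8 wells named STF4 fell inside. As ubiquitin Ct minus gene Ct, the wells outside flood roots spanned -7.94 to -3.42 for CRF5 and -3.10 to 0.12 for STF4. The flood root wells spanned -1.99 to -0.91 at the CRF5 position and -5.37 to -4.90 at the STF4 position. On this scale none lay inside as laid out, and all lay inside with the names exchanged. The log2 fold changes in flood roots then became 0.24 for CRF5 at 2 h (adjusted p = 0.982), 1.15 for CRF5 at 24 h (adjusted p = 0.00124), 0.33 for STF4 at 2 h (adjusted p = 0.679) and 0.85 for STF4 at 24 h (adjusted p = 0.0425). The sheet itself does not settle which naming of that plate is right, and both sets of values are therefore given.

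CRF5 and STF4 in flood roots also differed from those in the other stressed roots, which were each on another plate. At 2 h the median log2 difference of 9 other second-plate targets between flood and salt roots was 0.14, and their values lay between -1.63 and 0.60. CRF5 differed by 3.84 (SE 0.196, adjusted p = 1.87e-10) and STF4 by -2.52 (SE 0.213, adjusted p = 4.24e-07), and 18.2% of the 22 targets passed. At 24 h the differences between flood and salt roots were 4.04 for CRF5 (adjusted p = 8.01e-10) and -3.72 for STF4 (adjusted p = 9e-10), with 45.5% of targets passing, and the other 9 lay between -5.05 and 0.72. Against pH 4.2 roots the differences at 2 h were 2.54 for CRF5 (adjusted p = 0.011) and -4.84 for STF4 (adjusted p = 0.000188), with 36.4% passing and the other 9 between -2.40 and -0.57. At 24 h they were 4.01 (adjusted p = 1.05e-06) and -4.24 (adjusted p = 9.44e-07), with 50% passing and the other 9 between -0.80 and 0.98. With the names exchanged, 2 of these 8 differences passed.

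**Figure D2:**
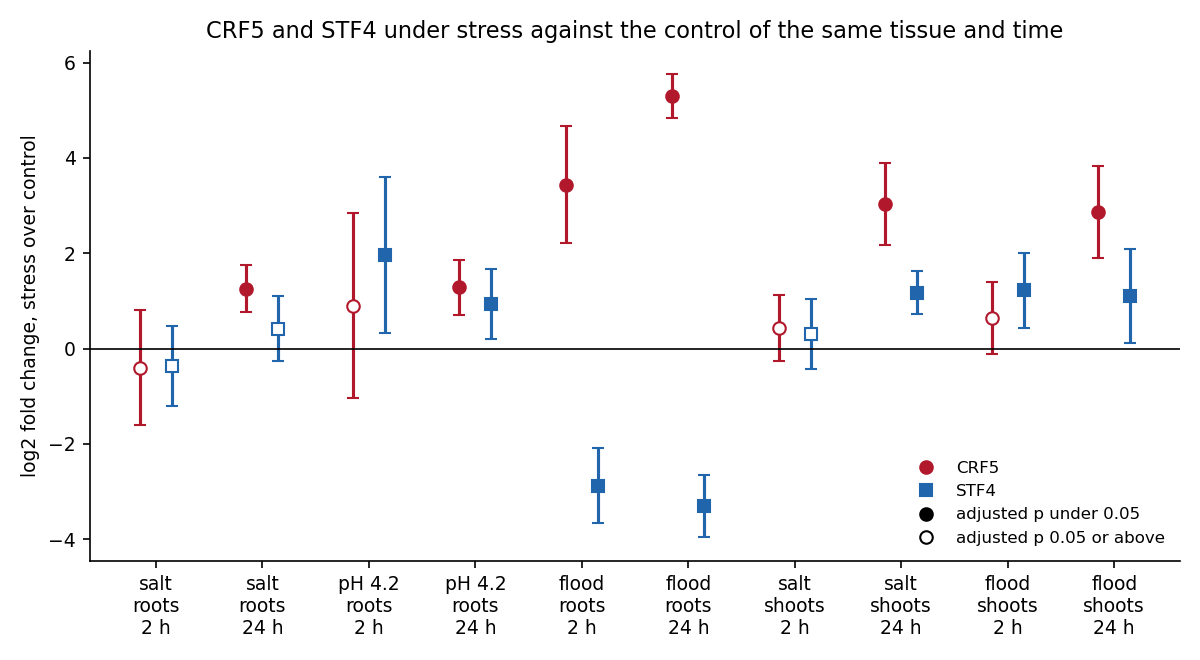
Log2 fold change of CRF5 (circles) and STF4 (squares) under stress over its control (vertical axis), with 95% intervals, for the 10 comparisons; filled symbols passed an adjusted p of 0.05. The flood root values run from 3.44 to 5.30 for CRF5 and from -2.88 to -3.30 for STF4, and no other comparison has the 2 genes past the threshold in opposite directions.

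In shoots, CRF5 lay above control at 24 h under both stresses, and its level in control shoots had fallen by 2.17 on the log2 scale since 2 h. At 24 h its wells had Ct 20.16, 19.79, 20.16 and 20.39 in salt shoots and 20.06, 20.01 and 20.01 in flood shoots, against 22.17, 22.60, 22.77 and 24.05 in control shoots. No stressed well overlapped with a control well, and the last control well was more than 1 cycle later than the others. CRF5 was 8.19-fold higher in salt shoots (log2 fold change 3.03, SE 0.394, adjusted p = 1.78e-05), where 90.9% of targets passed, and 7.31-fold higher in flood shoots (log2 fold change 2.87, SE 0.430, adjusted p = 0.000122), where 100% did. It ranked 3rd of 22 in salt shoots and 8th in flood shoots, where the median log2 fold change of all targets was 1.51 and 2.40.

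At 2 h CRF5 did not pass in shoots. Its wells had Ct 20.10, 19.66, 19.53 and 19.47 in salt shoots and 20.30, 20.01, 19.45 and 20.19 in flood shoots, against 20.58, 20.09, 20.78 and 20.63 in control shoots. The log2 fold changes were 0.43 under salt (95% interval -0.26 to 1.13, adjusted p = 0.376), with 31.8% of targets passing, and 0.64 under flood (95% interval -0.10 to 1.39, adjusted p = 0.114), with 63.6% passing. The response at 24 h exceeded that at 2 h by 2.60 under salt (SE 0.538, adjusted p = 0.0015) and by 2.23 under flood (SE 0.552, adjusted p = 0.003), each among 40.9% of targets passing this test of the interaction. Exchanging the root and shoot control plates left 1.48 (adjusted p = 0.0916) and 1.11 (adjusted p = 0.208).

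The control shoots moved between the times as well. CRF5 fell by 2.17 on the log2 scale in control shoots at 24 h against 2 h (SE 0.452, adjusted p = 0.00598), where 18.2% of targets passed. In salt and flood shoots, the group means of minus delta Ct (ubiquitin Ct minus CRF5 Ct) at 24 h were -3.75 and -3.92, and at 2 h they were -4.19 and -3.98. The level in stressed shoots was thus close at both times, while that of control shoots was -6.79 at 24 h and -4.62 at 2 h. Each pair of times shared a plate.

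STF4 passed in shoots under salt at 24 h and under flood at both times. At 24 h its wells had Ct 18.28, 18.01, 17.98 and 18.20 in salt shoots, against 19.22, 18.97, 18.94 and 19.01 in control shoots, with no overlap. In flood shoots at 24 h they had Ct 17.10, 18.61, 18.91 and 17.07, 2 early and 2 late wells, of which the late ones lay less than 0.4 cycles below the control wells. At 2 h its wells had Ct 17.33, 16.63, 17.12 and 17.53 in flood shoots, against 18.12, 17.78, 18.78 and 18.37 in control shoots. STF4 was 2.26-fold higher in salt shoots at 24 h (log2 fold change 1.18, SE 0.215, adjusted p = 0.000142), 2.33-fold higher in flood shoots at 2 h (1.22, SE 0.373, adjusted p = 0.00933) and 2.15-fold higher in flood shoots at 24 h (1.11, SE 0.445, adjusted p = 0.0315). In salt shoots at 2 h, with wells between Ct 17.38 and 17.88, its log2 fold change was 0.30 (95% interval -0.43 to 1.03, adjusted p = 0.577).

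The STF4 values in shoots were not larger than those of the panel. STF4 ranked 15th of 22 in salt shoots at 24 h, 12th in flood shoots at 2 h and 20th in flood shoots at 24 h. When the mean of the 9 other second-plate targets replaced ubiquitin as the reference, its log2 fold changes in these 3 comparisons were -0.17, -0.05 and -0.71 and none passed. CRF5 kept 1.69 in salt shoots at 24 h (adjusted p = 0.0028) under that reference, and had 1.06 in flood shoots at 24 h (adjusted p = 0.0575). The call of STF4 in flood shoots at 24 h was lost without the first row of wells (log2 fold change 0.71) and without the last row (0.91), and also with the irregularly named wells left out on both plates (0.91, adjusted p = 0.101). At 2 h it was lost without the third row (0.97). With the root and shoot control plates exchanged, the 3 values of STF4 were 0.15, 1.04 and 0.08 and none passed.

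In salt roots CRF5 passed at 24 h and not at 2 h. Its wells at 24 h had Ct 20.28, 20.36, 20.34 and 20.55 in salt roots, against 22.21, 22.37 and 22.72 in control roots, with no overlap. Relative to ubiquitin, CRF5 was 2.39-fold higher (log2 fold change 1.26, SE 0.224, adjusted p = 0.000373), 3rd of 22 targets of which 45.5% passed. At 2 h its wells lay between Ct 20.05 and 20.43 in salt roots, earlier than all 3 control wells, but ubiquitin was earlier too, and the log2 fold change was -0.40 (95% interval -1.61 to 0.81, adjusted p = 0.623), with 36.4% of targets passing. The difference between the 2 times was 1.66 (SE 0.625, adjusted p = 0.0675), among 18.2% passing. The rise at 24 h did not pass with ubiquitin of both plates as the reference (0.57, adjusted p = 0.261) and turned to -0.40 with the mean of the other second-plate targets.

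STF4 did not pass in salt roots. Its wells had Ct 17.09, 17.06 and 17.12 at 2 h and 16.49, 16.88, 16.74 and 16.97 at 24 h, all earlier than the control root wells of the same time, but ubiquitin was earlier too. The log2 fold change was -0.36 at 2 h (95% interval -1.20 to 0.48, adjusted p = 0.507) and 0.42 at 24 h (95% interval -0.26 to 1.10, adjusted p = 0.264). Without any reference the values were 1.18 (adjusted p = 0.0139) and 1.21 (adjusted p = 0.0034), and with the mean of the other second-plate targets they were -2.0 (adjusted p = 0.000742) and -1.24 (adjusted p = 0.00514). The direction of STF4 in salt roots therefore depended on the reference.

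In pH 4.2 roots, CRF5 rose at 24 h and STF4 at both times. CRF5 wells at 24 h had Ct 21.31, 21.00, 21.11 and 21.36 in pH 4.2 roots, against 22.21, 22.37 and 22.72 in control roots. CRF5 was 2.44-fold higher (log2 fold change 1.28, SE 0.263, adjusted p = 0.000985), 4th of 22 targets of which 59.1% passed. At 2 h its wells had Ct 21.49, 21.89 and 22.26, within the span of the control wells, and the log2 fold change was 0.90 (95% interval -1.03 to 2.83, adjusted p = 0.342), with 63.6% of targets passing.

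STF4 wells in pH 4.2 roots had Ct 18.32, 17.37 and 17.43 at 2 h, which overlapped with the control wells, and 16.91, 17.03, 16.98 and 17.44 at 24 h, of which the latest fell inside the control span. STF4 was 3.90-fold higher after 2 h (log2 fold change 1.96, SE 0.727, adjusted p = 0.0406) and 1.91-fold higher at 24 h (0.94, SE 0.341, adjusted p = 0.0305). The 2 h value rested on a late ubiquitin mean with an SD of 0.985 cycles in pH 4.2 roots. Its wells had Ct 17.23, 18.94, 17.01 and 16.77, and the latest was in the second row, where neither gene had a Ct. The second row of control roots at 2 h also held the latest CRF5 well (Ct 22.81, against 20.59 and 20.73). Without the second row in both groups the CRF5 value at 2 h was -0.19 (limma adjusted p = 0.673). That value therefore reflects the loss of this control well as well as that of the late ubiquitin well. With ubiquitin of both plates the STF4 values were 0.25 (adjusted p = 0.824) and -1.24 (adjusted p = 0.143), and the CRF5 value at 24 h was -0.89 (adjusted p = 0.241). With the mean of the other second-plate targets CRF5 had 0.06 at 24 h (adjusted p = 0.839). Ubiquitin at 24 h differed between pH 4.2 and control roots by 0.05 cycles on these plates and by -3.97 cycles on those of the first layout. Leaving out the first or the second row of wells ended the STF4 call at both times (log2 fold changes 2.16 and 1.36 at 2 h, 0.79 and 0.82 at 24 h), and leaving out the third ended it at 2 h (2.01).

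**Figure D3:**
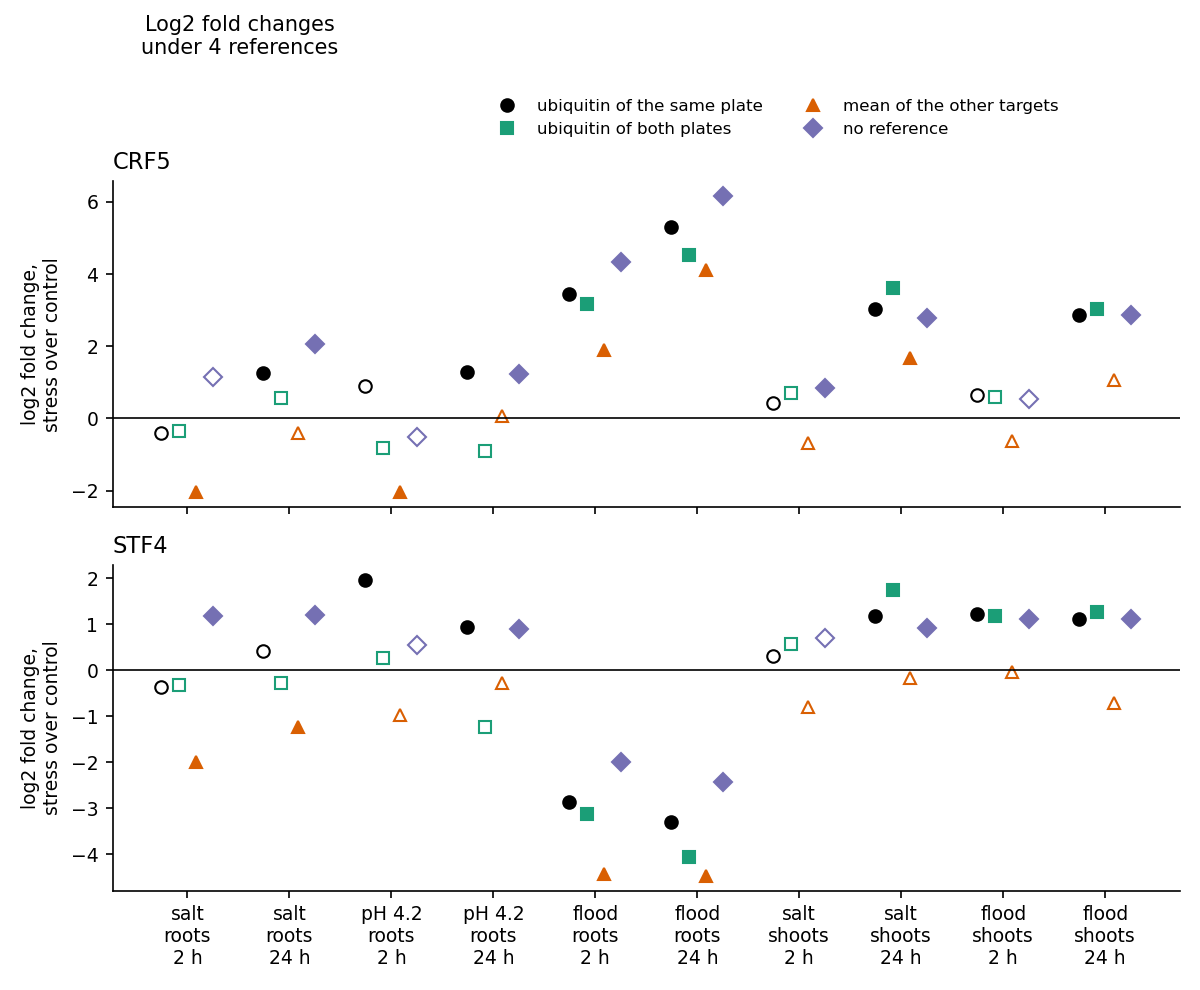
Log2 fold change of CRF5 (top) and STF4 (bottom) in the 10 comparisons (vertical axis) with 4 choices of reference; filled symbols passed an adjusted p of 0.05. The values in flood roots keep their direction under all 4 references, from 1.89 to 6.16 for CRF5 and from -1.99 to -4.47 for STF4, whereas both genes take both signs in salt and pH 4.2 roots and in several shoot comparisons.

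Differences between responses, of shoots against roots or of 24 h against 2 h, passed in 8 of 18 tests of CRF5 and STF4, close to the 47% of 198 tests over all targets. Under flood, both genes differed between the tissues. The log2 response of CRF5 in shoots minus that in roots was -2.80 at 2 h (SE 0.660, adjusted p = 0.000807), with 72.7% of targets passing, and -2.43 at 24 h (SE 0.510, adjusted p = 0.000336), with 77.3% passing. That of STF4 was 4.10 at 2 h (SE 0.541, adjusted p = 9.19e-07) and 4.41 at 24 h (SE 0.563, adjusted p = 1.31e-06). With the names exchanged on the flood root plate the values of CRF5 were 0.41 and 1.72, of which the second passed (adjusted p = 0.00585), and those of STF4 were 0.89 and 0.26, of which neither passed. The CRF5 value at 24 h was -1.5 with ubiquitin of both plates (adjusted p = 0.0747), and that at 2 h was -1.45 with the root and shoot control plates exchanged (adjusted p = 0.0564).

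Under salt, the response of CRF5 in shoots exceeded that in roots by 1.77 at 24 h (SE 0.496, adjusted p = 0.00302), with 68.2% of targets passing. At 2 h the difference was 0.83 (95% interval -0.55 to 2.22, adjusted p = 0.328), with 40.9% passing. STF4 differed by 0.66 at 2 h (adjusted p = 0.328) and by 0.76 at 24 h (95% interval -0.04 to 1.55, adjusted p = 0.0744). The comparison between tissues uses 4 plates, and its value for CRF5 at 24 h was 0.72 (adjusted p = 0.175) without a reference and 0.89 (adjusted p = 0.113) with the root and shoot control plates exchanged.

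In flood roots the response of CRF5 at 24 h exceeded that at 2 h by 1.86 (SE 0.626, adjusted p = 0.0354), with 31.8% of targets passing, and that of STF4 differed by -0.43 (95% interval -1.39 to 0.54, adjusted p = 0.574). The CRF5 value was 0.91 (adjusted p = 0.406) with the names exchanged and 1.36 (adjusted p = 0.201) with ubiquitin of both plates. In pH 4.2 roots the differences between the times were 0.38 for CRF5 (adjusted p = 0.68) and -1.03 for STF4 (adjusted p = 0.337), with 31.8% of targets passing. STF4 did not pass in salt roots (0.78, adjusted p = 0.262), salt shoots (0.87, adjusted p = 0.0866) or flood shoots (-0.12, adjusted p = 0.867). Across these 5 stress and tissue combinations STF4 therefore had no time difference past the threshold.

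In control plants, STF4 was 2.04-fold higher in roots than in shoots at 24 h (log2 difference 1.03, SE 0.318, adjusted p = 0.0122), where 68.2% of targets passed. At 2 h its difference was 0.18 (95% interval -0.90 to 1.27, adjusted p = 0.839), with 50% passing. CRF5 differed between roots and shoots by -0.67 at 2 h (95% interval -2.01 to 0.66, adjusted p = 0.408) and by 0.44 at 24 h (95% interval -0.58 to 1.47, adjusted p = 0.375). Between 24 h and 2 h in control roots CRF5 differed by -1.05 (95% interval -2.58 to 0.48, adjusted p = 0.235) and STF4 by 0.29 (adjusted p = 0.621), with 13.6% of targets passing. STF4 in control shoots differed by -0.55 between the times (95% interval -1.28 to 0.17, adjusted p = 0.198).

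The group levels, as the mean of ubiquitin Ct minus gene Ct on each plate, spanned 5.74 log2 units for CRF5 and 4.98 for STF4. Without flood roots the spans were 3.03 and 2.70. For CRF5 the order ran down through flood roots at 24 h (-1.05) and 2 h (-1.86), salt shoots at 24 h (-3.75), flood shoots at 24 h (-3.92) and 2 h (-3.98), salt shoots at 2 h (-4.19), pH 4.2 roots at 2 h (-4.39) and control shoots at 2 h (-4.62). It went on through pH 4.2 roots at 24 h (-5.06), salt roots at 24 h (-5.09), control roots at 2 h (-5.30), salt roots at 2 h (-5.70) and control roots at 24 h (-6.35) to control shoots at 24 h (-6.79). Of the 13 pairs of neighbours in this order, 10 had overlapping wells, and the 3 that did not were the 2 gaps below the flood root groups and that below salt roots at 2 h.

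For STF4 the order ran down through pH 4.2 roots at 2 h (-0.22) and 24 h (-0.96), flood shoots at 2 h (-1.15), salt roots at 24 h (-1.48), salt shoots at 24 h (-1.75), flood shoots at 24 h (-1.81) and control roots at 24 h (-1.89). It went on through salt shoots at 2 h (-2.07), control roots at 2 h (-2.18), control shoots at 2 h (-2.37), salt roots at 2 h (-2.54) and control shoots at 24 h (-2.92) to flood roots at 2 h (-5.06) and 24 h (-5.20). Wells overlapped in 11 of 13 neighbouring pairs. The exceptions were the step below salt roots at 2 h and that of 2.14 log2 units between control shoots at 24 h and flood roots at 2 h.

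The Ct difference between CRF5 and STF4 in the same well row needs no reference gene. Both genes had a Ct in 50 rows of 14 groups. CRF5 was later than STF4 in all 42 rows outside flood roots, by 1.09 to 5.12 cycles, and earlier in all 8 rows of flood roots, by a difference of -2.92 to -4.34 cycles. Because the 2 assays may amplify with different efficiency, the difference was compared between groups and not read as a ratio of transcripts.

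**Figure D4:**
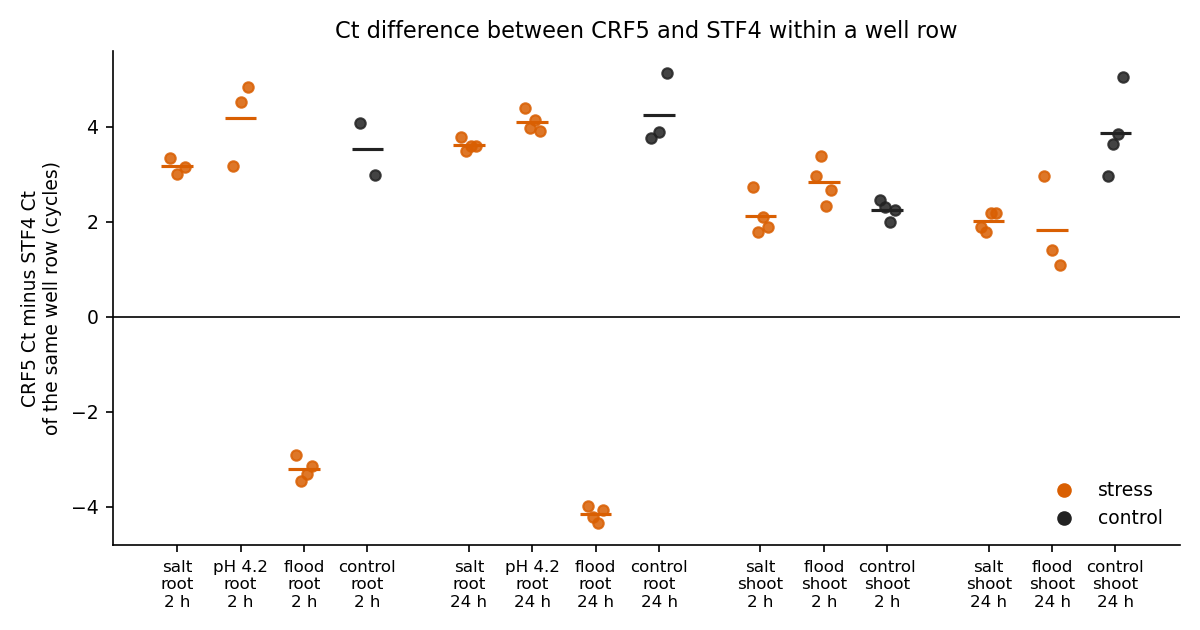
Ct of CRF5 minus Ct of STF4 in the same well row, in cycles (vertical axis), by condition, tissue and time; points are well rows (orange, stress; black, control) and lines are group means. The 12 groups outside flood roots lie above 0 in every row and the 2 flood root groups lie below 0 in every row, at means of -3.20 and -4.15 cycles.

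In flood roots the difference averaged -3.20 ± 0.23 cycles at 2 h (SD, n = 4), against 3.53 ± 0.77 in control roots (n = 2), and -4.15 ± 0.16 at 24 h (n = 4), against 4.25 ± 0.75 in control roots (n = 3). Flood minus control was -6.74 cycles at 2 h and -8.40 cycles at 24 h. An exact permutation test over rows, two-sided, gave p = 0.0667 and p = 0.029, in each case the smallest that these numbers of rows allow. With the names exchanged the values were -0.33 and -0.10 cycles.

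In salt shoots at 24 h the difference averaged 2.01 ± 0.21 cycles, against 3.87 ± 0.87 in control shoots (SD, n = 4 each), a change of -1.86 cycles without overlap (exact p = 0.029). In flood shoots at 24 h it averaged 1.82 ± 1.00 cycles (n = 3), a change of -2.05 cycles with overlap (exact p = 0.0857). None of the 10 comparisons passed after adjustment (lowest exact adjusted p = 0.133), while 2 had an unadjusted p under 0.05. No exact p here could lie below 0.029, so that no comparison could pass alone after this adjustment. The changes of the other 6 comparisons lay between -0.64 and 0.64 cycles.

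**Figure D5:**
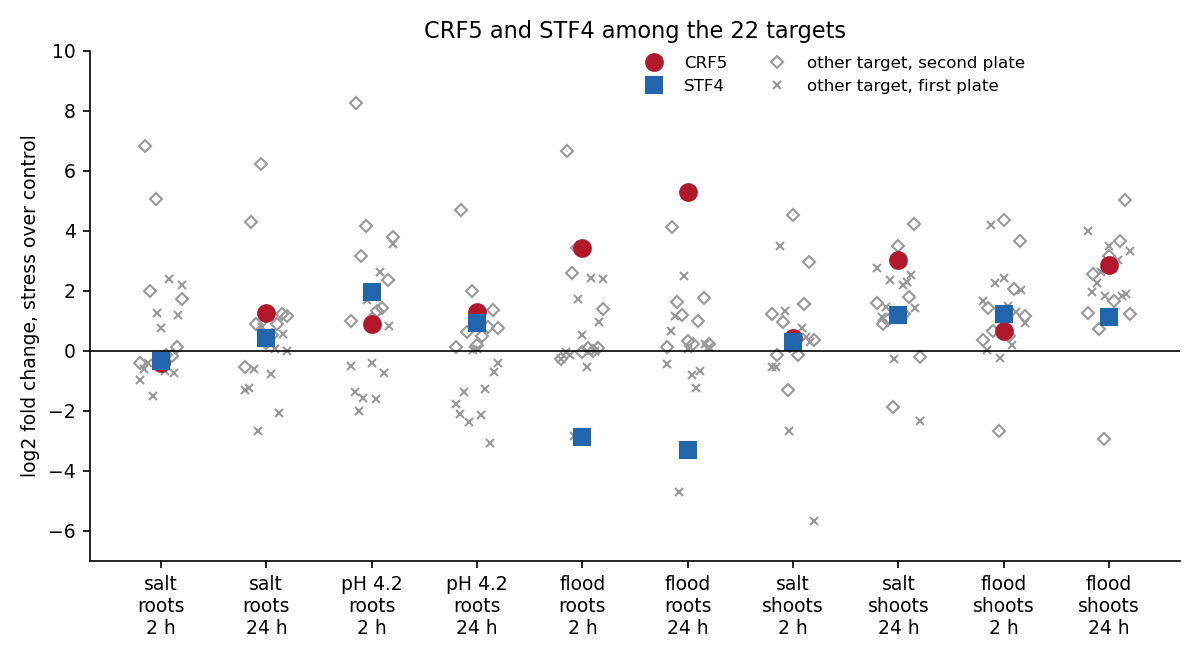
Log2 fold change under stress over control (vertical axis) of CRF5 (circles), STF4 (squares) and the 20 other targets (open diamonds, second plate; crosses, first plate) in the 10 comparisons. In flood roots CRF5 is at or next to the top of the 22 targets and STF4 at or next to the bottom, and in the other comparisons both lie inside the range of the others.

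The other 20 targets give the setting for these values. In flood roots, 6 of them rose and 1 fell at 2 h, and 5 rose and 2 fell at 24 h, with median log2 fold changes of 0.09 and 0.23. In salt shoots at 24 h 16 rose and 2 fell, and in flood shoots at 24 h 19 rose and 1 fell. In pH 4.2 roots 9 rose and 4 fell at 2 h and 4 rose and 7 fell at 24 h, and in salt roots 6 rose and 2 fell at 2 h and 4 rose and 5 fell at 24 h. Of the 9 that shared the plate with CRF5 and STF4, none fell in roots in any of the 6 comparisons, and their medians in pH 4.2 roots were 2.35 and 0.75.

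Across the 14 group means, the targets whose levels followed CRF5 most closely were IDD3 (Pearson r = 0.56), IDD18 (r = 0.49) and IDD13 (r = 0.44). Those for STF4 were IDD2 (r = 0.56), IDD16 (r = 0.48) and SlSTOP1 (r = 0.47), a zinc finger gene named for its Arabidopsis relative, which is required for tolerance of protons. Targets of the same plate shared the ubiquitin mean of each group at each time. Of the targets named in this paragraph, all except IDD3 and IDD2 lay on the second plates, as CRF5 and STF4 did. The orders of r depended on flood roots. Without the 2 flood root groups the closest to CRF5 were IDD16 (r = 0.86), IDD17 (0.79) and IDD18 (0.71), and the closest to STF4 were IDD18 (0.77), IDD13 (0.68) and IDD17 (0.61). With the names exchanged there, the same 3 targets led for each gene, at 0.83, 0.78 and 0.69 for CRF5 and 0.77, 0.66 and 0.60 for STF4. Without flood roots, r for IDD3 and IDD13 with CRF5 was 0.24 and 0.01. For STF4, r was then 0.30 with IDD2, 0.39 with IDD16 and 0.44 with SlSTOP1.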

How the data were processed

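Ct values per well were deposited by the authors before normalization, in a sheet of other units (PCR cycles) with no ratio or log2 step, from SYBR Green qRT-PCR analysed in CFX Maestro; the authors' normalized values and fold changes hold neither gene and were not used. The members and lists were chosen with earlier results of these data known. Stress and tissue followed titles and source names; other label fields conflict with them, and the labels' times (2 h first plate, 24 h second) were replaced by well rows. Of 1536 wells, 1425 had a Ct and 1411 were used: 14 irregularly named wells of the first plate were left out, and 15 of the second were kept in plate order, which had been planned as an alternative and became the main reading because the paper's tables came out of it, so that leaving them out is the alternative. Each comparison was a fit of minus Ct in limma 3.58.1 under R 4.3.3 (lmFit, eBayes), the error of the same plate's ubiquitin mean was added (Satterthwaite degrees of freedom), and two-sided p-values were adjusted by Benjamini-Hochberg over 22 targets, with a threshold of 0.05. Interactions were fitted in the same way. The fit was tested on simulated data. Exact permutation tests over wells used Python 3.11.15 and numpy 2.4.6, and correlations used scipy 1.17.1. In the alternative to limma the permutation tests leave out the error of ubiquitin. Genes named are CRF5, STF4 and, for each, the 3 targets with the highest Pearson r. The methods state biological samples and technical replicates, to which wells are not tied. Alternatives concerned the reference, the naming of plates and wells, single rows, the adjustment and the test.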

Additional observations from a re-analysis of the deposited data

Results flagged for a closer look

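Tests of the difference between responses passed for 8 of 18, against 47% of 198 over all targets. CRF5 responded to salt at 24 h by 1.77 log2 units more in shoots than in roots. Its flood response in shoots minus that in roots was -2.80 at 2 h and -2.43 at 24 h, and that of STF4 was 4.10 and 4.41. The response of CRF5 at 24 h exceeded that at 2 h by 1.86 in flood roots, 2.60 in salt shoots and 2.23 in flood shoots. The 5 values that use flood roots depend on the naming of that plate's wells.

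Of 43 groups of 4 wells, 1 held a well apart from the rest, a ubiquitin well of pH 4.2 shoots at 2 h with a Ct of 17.58; chance gives about 1 in 20. That group has no well of CRF5 or STF4, so the value touches no result here.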

How the results depend on the processing

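The count of comparisons past the threshold was 6 for CRF5 and 7 for STF4. It was 2 for each with the exact permutation test, and with the mean of the other targets as reference 5 for CRF5 (3 higher, 2 lower) and 4 for STF4 (all lower). Leaving out 1 well row gave 6 to 7 for CRF5 and 4 to 6 for STF4 (4 without the first row). The difference between the Ct of both genes passed in 0 of 10 in each of its alternatives with a test. No exact p of the main reading could lie below 0.029, so that no comparison could pass alone after adjustment, and this count says little. Tissue differences in controls passed in 1 of 4, and in 2 with ubiquitin of both plates. With the names exchanged in flood roots, 2 instead of 5 tissue differences of the response passed, and 2 instead of 8 differences between flood and other stressed roots. Among values past the threshold in either reading, the direction then turned for STF4 in flood roots (0.33 and 0.85), for CRF5 in flood shoots against roots (0.41 and 1.72), for STF4 in flood against salt roots (0.69 at 2 h, 0.43 at 24 h), and for CRF5 in flood against salt roots at 24 h (-0.11) and against pH 4.2 roots (-0.67 and -0.13). With the mean of the other targets it turned for CRF5 in salt roots at 24 h (-0.40) and pH 4.2 roots at 2 h (-2.05), and for STF4 in salt roots at 24 h (-1.24), pH 4.2 roots (-0.98 and -0.29), salt shoots at 24 h (-0.17) and flood shoots (-0.049 and -0.71). With ubiquitin of both plates it turned in pH 4.2 roots at 24 h (CRF5 -0.89, STF4 -1.24), and without a reference for STF4 in salt roots at 2 h (1.18). With the root and shoot control plates exchanged it turned for STF4 in control roots against shoots at 24 h (-1.03) and in its salt response in shoots against roots at 24 h (-1.30). Values past it in neither reading also turned, as CRF5 in shoots at 2 h with the mean of the other targets (salt -0.68, flood -0.63). The cause was not tested. The well row as a replicate block gave 6 calls for each gene and lost STF4 in pH 4.2 roots at 2 h (1.80, adjusted p = 0.0809); same-numbered rows correlated above 0.1 in 15 of 40 pairs, so the rows were not taken as paired.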

Other observations

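Read as the labels place them, all second-plate rows would be 24 h. CRF5 then had log2 fold changes of 0.43 in salt roots (limma adjusted p = 0.388), 1.24 in pH 4.2 roots (adjusted p = 0.0502), 4.37 in flood roots (adjusted p = 2.98e-08), 1.73 in salt shoots (adjusted p = 0.000939) and 1.76 in flood shoots (adjusted p = 0.00314). STF4 had 0.03 in salt roots (adjusted p = 0.917), 1.57 in pH 4.2 roots (adjusted p = 0.00914), -3.11 in flood roots (adjusted p = 4.53e-10), 0.74 in salt shoots (adjusted p = 0.0517) and 1.16 in flood shoots (adjusted p = 0.00314).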
